A study of Mus musculus with 8 samples.

Results

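The 31 genes described here mark Kupffer cells, other macrophages and the monocytes that can replace them, and they were read in bulk liver RNA of mice whose hepatocytes lack Sco1. They were chosen by name as known markers, and each was represented by its brightest probe set with a single gene symbol. All 31 were measured, out of 22180 genes tested. They fell into 5 groups: resident Kupffer cell markers (5 genes), complement C1q chains (3), markers of macrophages in general (14), markers of monocyte-derived cells (5) and markers of lipid-associated macrophages (4).

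Kupffer cells are the macrophages that line the liver sinusoids. They settle in the liver before birth and renew themselves there, and they clear bacteria, dying cells and iron from the blood. When they are lost, blood monocytes enter through the chemokine receptor CCR2, take up the general macrophage genes early and the marker Timd4 late. Macrophages that surround fat-laden or damaged tissue in the liver show a further set of genes that includes Trem2, Cd9 and Gpnmb.

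Each of the 8 arrays held liver RNA of 1 mouse of the C57BL/6N strain, taken at 27 days of age. The 4 knockout mice carried 1 copy of an albumin-driven Cre and floxed alleles of Sco1 on both chromosomes (Albumin-Cretg/wt:Sco1fl/fl), so the deletion is aimed at hepatocytes and the macrophages keep their gene. The 4 wild-type controls were mixed by genotype label: mice 1 and 3 carried the same Cre with 1 floxed and 1 wild-type allele (Albumin-Cretg/wt:Sco1fl/wt), while mice 2 and 4 lacked Cre and carried floxed alleles on both chromosomes (Albumin-Crewt/wt:Sco1fl/fl). The titles of all 4 controls name Sco1fl/fl, which conflicts with the genotype given for mice 1 and 3, and every comparison by control class rests on the genotype labels. All values are log2 expression values after RMA, a method that equalises the arrays and summarises the probes of each probe set. Sco1, a copper chaperone for cytochrome c oxidase, read 7.48, 7.62, 7.72 and 7.56 in knockout mice 1 to 4 and 7.84, 7.93, 8.19 and 8.04 in wild-type mice 1 to 4, so all knockout values were the lower ones. The difference was -0.41 ± 0.09 (SE; limma, adjusted p = 0.0633), and 3 of 20 alternative settings brought it past the threshold of 0.05. Hepatocyte markers, 9 genes, gave 0 calls, with class means of -0.07 to 0.10 in all livers. In bulk tissue, fewer cells of a type and less RNA per cell cannot be told apart. The labels give no sex, litter or scan date.

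A pair of livers stood apart in these genes, 1 from each group. Knockout mouse 4 was the highest of the 4 knockout mice for 21 of the 31 marker genes, against 26.9% of all genes tested. Wild-type mouse 2 was the highest of its group for 23 of the 31, against 25.4% of all genes. Both held for the same 17 marker genes, or 54.8% of them, compared with 7.13% of all genes. Knockout mouse 4 also had low values of the Y-linked genes, at 7.49 for Eif2s3y, 7.37 for Kdm5d and 7.23 for Uty, where the other 7 mice lay between 8.40 and 9.02. What part this plays in the marker values was not tested. The counts of marker genes, and the list counts with a call, are therefore also given without these 2 mice, a choice made after their values were seen.

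**Figure D1:**
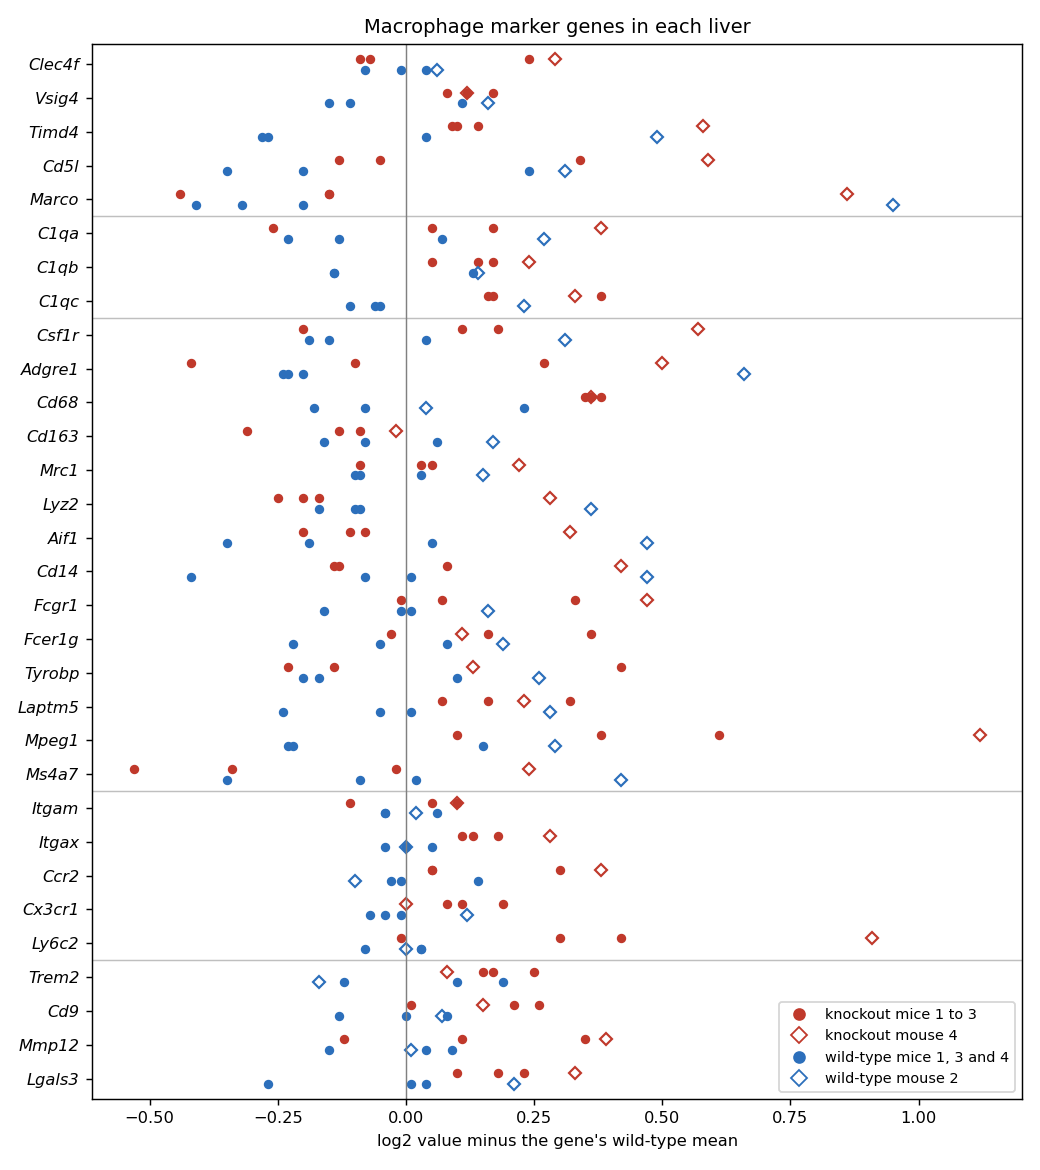
Each point is the log2 value of 1 liver minus the gene's mean over the 4 wild-type livers (horizontal axis), for the 31 marker genes from resident (top) through complement C1q, pan-macrophage and monocyte-derived to lipid-associated (bottom). The open diamonds, knockout mouse 4 and wild-type mouse 2, sit at the right of their group for most genes down to Ms4a7, while for Cd68 and Itgax all knockout points lie to the right of all wild-type points.

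Many macrophage genes carry binding sites for PU.1, a transcription factor that myeloid cells need, so the 250 bases upstream of the start site were searched in the RefSeq promoter windows of build GRCm38.p6. Of the 31 genes 26 had a window. The letters GAGGAAG, a core of PU.1 sites, were present on either strand in 10 of these 26 genes (38.5%), compared with 12% of the 16990 tested genes with a window. They were found upstream of Cd5l, Marco, C1qc, Mrc1, Fcgr1, Laptm5, Itgam, Ly6c2, Trem2 and Mmp12. The E-box CACGTG, bound by the lysosomal regulator TFEB among others, was in none of the 26 windows and in 7.83% of the tested genes. Such matches describe the letters and do not show that a factor binds. The windows of 7 genes that recur below are shown, with GAGGAAG or its reverse complement in capitals.
Clec4f, chr6:83656117-83656366, minus strand: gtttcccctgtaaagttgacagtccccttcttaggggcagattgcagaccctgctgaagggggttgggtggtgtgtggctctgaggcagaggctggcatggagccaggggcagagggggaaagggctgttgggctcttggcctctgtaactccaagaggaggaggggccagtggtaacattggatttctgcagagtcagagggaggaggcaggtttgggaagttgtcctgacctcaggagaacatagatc
Marco, chr1:120505025-120505274, minus strand: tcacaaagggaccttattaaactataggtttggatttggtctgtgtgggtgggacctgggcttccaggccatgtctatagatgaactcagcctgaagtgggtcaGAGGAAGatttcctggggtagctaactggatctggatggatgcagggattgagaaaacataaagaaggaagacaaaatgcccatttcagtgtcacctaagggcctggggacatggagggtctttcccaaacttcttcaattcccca
C1qc, chr4:136892915-136893164, minus strand: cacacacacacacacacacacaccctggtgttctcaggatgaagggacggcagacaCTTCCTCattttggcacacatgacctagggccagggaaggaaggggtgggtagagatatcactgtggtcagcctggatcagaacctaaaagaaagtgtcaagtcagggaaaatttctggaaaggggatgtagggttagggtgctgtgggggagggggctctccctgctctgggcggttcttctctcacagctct
Cd68, chr11:69666171-69666420, minus strand: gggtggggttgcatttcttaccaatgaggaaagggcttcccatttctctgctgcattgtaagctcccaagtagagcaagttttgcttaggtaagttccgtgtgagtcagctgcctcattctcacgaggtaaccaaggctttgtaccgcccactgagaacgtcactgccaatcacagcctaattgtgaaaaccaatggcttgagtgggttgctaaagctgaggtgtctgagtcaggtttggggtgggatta
Mpeg1, chr19:12460520-12460769, plus strand: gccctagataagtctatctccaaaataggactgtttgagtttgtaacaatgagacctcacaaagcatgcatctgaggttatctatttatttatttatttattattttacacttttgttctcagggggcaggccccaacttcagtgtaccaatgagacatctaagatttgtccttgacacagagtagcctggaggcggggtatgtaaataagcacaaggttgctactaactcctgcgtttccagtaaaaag
Itgax, chr7:128129300-128129549, plus strand: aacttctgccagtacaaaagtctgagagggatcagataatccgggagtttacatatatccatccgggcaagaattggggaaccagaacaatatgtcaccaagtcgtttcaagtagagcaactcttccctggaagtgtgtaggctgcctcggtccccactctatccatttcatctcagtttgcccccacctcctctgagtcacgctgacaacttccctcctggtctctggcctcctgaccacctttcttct
Trem2, chr17:48346151-48346400, plus strand: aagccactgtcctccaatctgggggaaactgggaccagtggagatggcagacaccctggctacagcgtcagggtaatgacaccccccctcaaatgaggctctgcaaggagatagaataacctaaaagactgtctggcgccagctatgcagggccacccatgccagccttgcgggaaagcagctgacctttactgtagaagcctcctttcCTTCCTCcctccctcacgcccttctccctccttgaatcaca
The match lay 146 bases before the start of Marco, 194 before that of C1qc and 41 before that of Trem2. Clec4f, Cd68, Mpeg1 and Itgax held neither set of letters in this window.

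Setting knockout against wild-type livers asks whether the macrophages of the liver changed when the hepatocytes around them lost Sco1. None of the 31 marker genes passed an adjusted p of 0.05 in either direction (limma with Benjamini-Hochberg adjustment over 22180 genes), where 0.433% of all genes were called higher and 0.717% lower, or 1.15% in either direction. At an unadjusted p under 0.05, 5 marker genes were higher, namely Cd68, Mpeg1, C1qc, Ly6c2 and Itgax, and 0 were lower. That is 16.1% of the marker genes on the higher side, against 8.61% of all genes on the higher and 8.06% on the lower side. Differences were above 0 for 27 of the 31 (87.1%), against 57.2% of all genes, with a median of 0.15 on the log2 scale against 0.03. The share over all genes depends on signal. It was 69.8% with a median of 0.07 below the 50th percentile of mean signal, and 44.5% with a median of -0.02 from there up. Of the 31 marker genes 6 lay below that percentile. The groups did not overlap for 2 marker genes (6.45%), Cd68 and Itgax, compared with 10.7% of all genes, or 5.26% counting only genes higher in the knockout. After quantile normalization was applied again, 2 marker genes and 9.36% of all genes did not overlap. Without knockout mouse 4 and wild-type mouse 2 again 0 were called in either direction, against 0.0812% of all genes higher and 0.149% lower. The median of the marker genes was then 0.14, and 7 genes (22.6%) did not overlap against 22.5% of all genes.

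**Figure D2:**
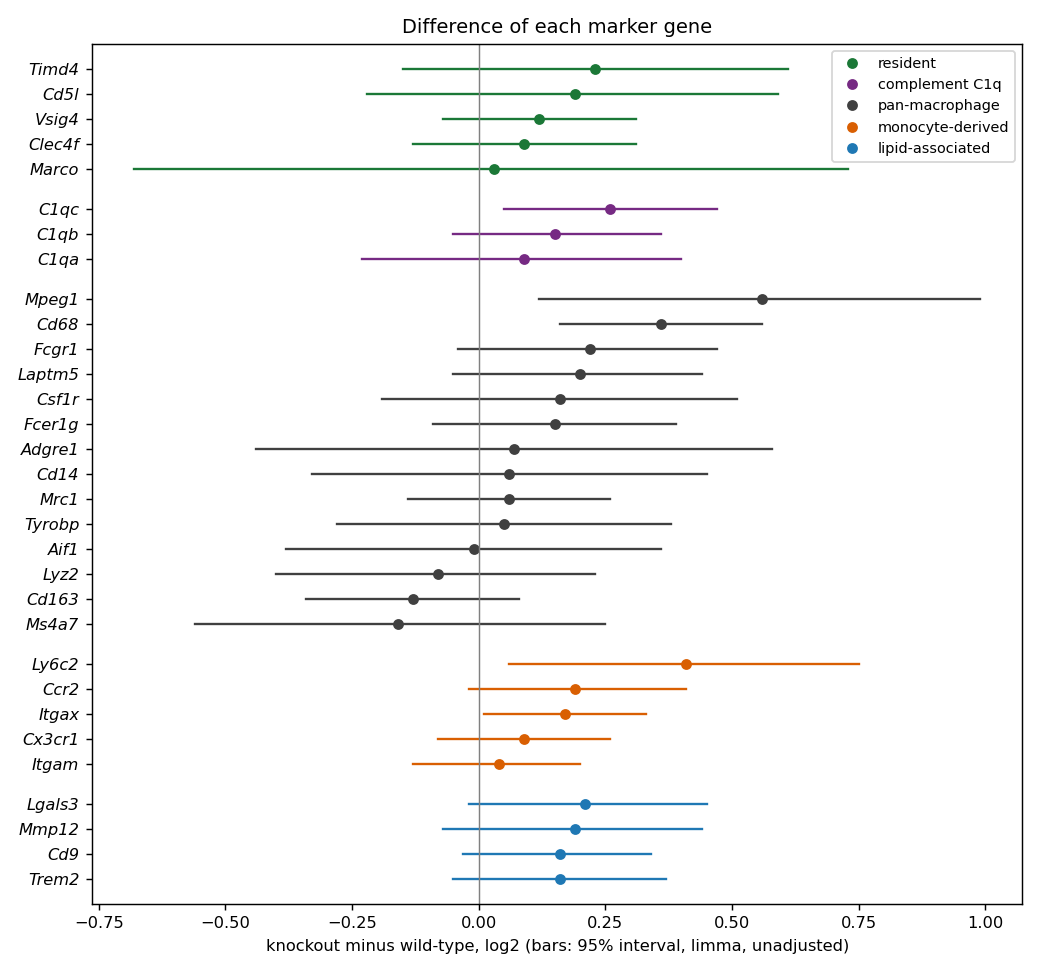
The difference between the knockout and wild-type means (log2, horizontal axis) is shown for each marker gene as a point with its 95% interval from limma, not adjusted for the number of genes, coloured by marker group. Most intervals span 0, and Mpeg1 at 0.56 and Ly6c2 at 0.41 lie farthest right.

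The resident Kupffer cell markers did not separate the groups. Clec4f, a lectin that in mice is found on Kupffer cells and hardly elsewhere, read 10.06, 10.39, 10.08 and 10.44 in knockout mice 1 to 4 and 10.19, 10.21, 10.07 and 10.14 in wild-type mice 1 to 4. Knockout mice 2 and 4 were above all wild-type mice and knockout mouse 1 below all of them. The difference of 0.09 ± 0.10 (SE, n = 4 each; limma, adjusted p = 0.688) had a 95% interval of -0.13 to 0.31. Vsig4, a complement receptor that takes up opsonised particles, read 11.14, 11.09, 11.05 and 11.09 in the knockout and 11.08, 11.13, 10.82 and 10.86 in the wild-type livers. The knockout livers were within 0.09 of each other, and wild-type mice 1 and 2 lay among them. The difference was 0.12 ± 0.09 (limma, adjusted p = 0.517).

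Timd4, a receptor for phosphatidylserine on dying cells and a mark of long-lived Kupffer cells, read 8.92, 8.96, 8.91 and 9.40 in knockout and 8.86, 9.31, 8.54 and 8.55 in wild-type livers. The highest liver of each group stood well above its neighbours, and the groups overlapped. The difference was 0.23 ± 0.17 with an interval of -0.15 to 0.61 (limma, adjusted p = 0.528). Cd5l, a secreted macrophage protein that limits cell death, differed by 0.19 ± 0.18 (limma, adjusted p = 0.639). Marco, a scavenger receptor for bacteria, varied most among livers of the same group: it read 7.03, 7.32, 7.32 and 8.33 in knockout and 7.27, 8.42, 7.06 and 7.15 in wild-type livers. One liver in each group was more than 1 log2 unit above the lowest, and the difference between the means was 0.03 ± 0.32 (interval -0.68 to 0.73; limma, adjusted p = 0.976). Its sign turned when any of 4 arrays was omitted, and over all 8 such omissions the difference ranged from -0.25 to 0.34.

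The chains of complement C1q are made by macrophages and start the classical complement pathway. C1qc read 8.87, 8.88, 9.09 and 9.04 in knockout and 8.66, 8.94, 8.60 and 8.65 in wild-type livers. Wild-type mouse 2 reached into the knockout range and the other wild-type mice stayed below it. The difference was 0.26 ± 0.09, with an unadjusted p of 0.0197 and an adjusted p of 0.209 (limma). The C1qb difference was 0.15 ± 0.09 and that of C1qa 0.09 ± 0.14 (limma, adjusted p of 0.423 and 0.789).

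Of the markers of macrophages in general, Cd68 came closest to the threshold. Cd68, a glycoprotein of the late endosome and lysosome, read 9.96, 9.95, 9.98 and 9.96 in knockout mice and 9.83, 9.64, 9.42 and 9.52 in wild-type mice. The knockout livers agreed within 0.03 and all lay above the highest wild-type liver. The difference was 0.36 ± 0.09, a fold of 1.28 (95% interval 0.16 to 0.56 on the log2 scale), with an unadjusted p of 0.00254 and an adjusted p of 0.0921 (limma). Over 20 alternative settings its adjusted p lay between 0.0516 and 0.398, so it passed in none. It was as large without knockout mouse 4 and wild-type mouse 2, at 0.37 ± 0.12 (adjusted p = 0.206), and against each kind of control, at 0.34 ± 0.12 over controls with Cre and 0.38 ± 0.12 over controls without.

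Mpeg1, a pore-forming protein with which macrophages attack engulfed bacteria, showed the largest difference of the 31. It read 9.37, 9.88, 9.65 and 10.39 in knockout and 9.42, 9.56, 9.05 and 9.04 in wild-type livers. Knockout mouse 1 lay below wild-type mice 1 and 2, and the other knockout mice above all wild-type mice. The difference was 0.56 ± 0.20, a fold of 1.47 (limma, unadjusted p = 0.0165, adjusted p = 0.196), and 0.46 ± 0.15 without knockout mouse 4 and wild-type mouse 2.

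The classical pan-macrophage genes showed smaller differences. Csf1r, the receptor for the growth factor on which macrophages depend, read 9.75, 10.13, 10.06 and 10.52 in knockout and 9.99, 10.26, 9.76 and 9.80 in wild-type livers, a difference of 0.16 ± 0.16 (limma, adjusted p = 0.638). Adgre1, which encodes the macrophage antigen F4/80, read 8.96, 9.65, 9.28 and 9.88 in knockout and 9.18, 10.04, 9.14 and 9.15 in wild-type livers, a difference of 0.07 ± 0.23 (adjusted p = 0.911). In both genes the spread within a group was larger than the difference between the groups. Adgre1 turned to -0.08 without knockout mouse 4 and reached 0.29 without wild-type mouse 2.

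The Fc receptor gene Fcgr1 and the immune cell lysosomal gene Laptm5 stood at 0.22 ± 0.12 and 0.20 ± 0.11, and the signalling adaptors Fcer1g and Tyrobp at 0.15 ± 0.11 and 0.05 ± 0.15. Mrc1, the mannose receptor, which sinusoidal endothelium makes too, stood at 0.06 ± 0.09, and Cd14, the co-receptor for bacterial lipopolysaccharide, at 0.06 ± 0.18. Below 0 were Ms4a7, a membrane protein of macrophages, at -0.16 ± 0.18, the haemoglobin scavenger receptor Cd163 at -0.13 ± 0.10, the lysozyme gene Lyz2 at -0.08 ± 0.14 and Aif1, which encodes the actin-bundling protein IBA1, at -0.01 ± 0.17. None of these 10 genes had an adjusted p below 0.379 (limma). Lyz2 has a near-identical neighbour, Lyz1, whose probe set read 5.83 on average in both groups, and either probe set may read both transcripts. Of the 31 marker genes, 25 had a difference smaller than the range of values within the knockout group and within the wild-type group alike.

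The markers of monocyte-derived cells were dim on these arrays, with 3 of the 5 below the 50th percentile of mean signal. Dim genes as a whole lay higher in the knockout: below that percentile the median difference was 0.07 and 69.8% of genes were above 0, against -0.02 and 44.5% for the brighter genes. Ly6c2, the surface antigen of inflammatory monocytes, read 7.51, 7.94, 7.82 and 8.43 in knockout and 7.44, 7.52, 7.55 and 7.55 in wild-type livers. Wild-type livers agreed within 0.11, knockout mouse 1 lay among them and the other 3 knockout mice above. The difference was 0.41 ± 0.16, a fold of 1.33 (limma, unadjusted p = 0.0251, adjusted p = 0.23), and it was 0.24 ± 0.12 without knockout mouse 4 and wild-type mouse 2. Ly6c1, its near-identical neighbour, which endothelium expresses, stood at 0.41 ± 0.17 (adjusted p = 0.27) from a probe set in the 10th percentile of signal. Its difference was 0.11 ± 0.15 against controls with Cre and 0.70 ± 0.15 against those without, and the probe sets may read each other's transcript.

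Itgax, which encodes the integrin CD11c of dendritic cells and some macrophages, read 5.66, 5.68, 5.73 and 5.83 in knockout and 5.60, 5.55, 5.51 and 5.55 in wild-type livers. The groups did not overlap, yet the gap between them was only 0.06. The difference was 0.17 ± 0.07 (limma, unadjusted p = 0.0349, adjusted p = 0.259), at a signal in the 32.8th percentile of all genes. Ccr2, the receptor by which monocytes leave the marrow and enter tissue, stood at 0.19 ± 0.10. Cx3cr1, the fractalkine receptor, stood at 0.09 ± 0.08 and Itgam, which encodes the integrin CD11b, at 0.04 ± 0.08 (adjusted p of 0.354 to 0.843).

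The lipid-associated markers were all above 0 and none passed. Trem2, a lipid-sensing receptor, read 6.70, 6.78, 6.68 and 6.61 in knockout and 6.63, 6.36, 6.72 and 6.41 in wild-type livers, a difference of 0.16 ± 0.09 (limma, adjusted p = 0.414). Wild-type mice 1 and 3, which carried Cre, lay within the knockout range, and mice 2 and 4 lay below it. Against the controls with Cre the Trem2 difference was therefore 0.02 ± 0.09, and against those without Cre 0.31 ± 0.09 (adjusted p of 0.959 and 0.263). Lgals3, the galectin of activated macrophages that bile duct cells make as well, stood at 0.21 ± 0.10, the macrophage elastase gene Mmp12 at 0.19 ± 0.12 and the tetraspanin gene Cd9 at 0.16 ± 0.08 (limma, adjusted p of 0.333 to 0.439). A dimmer second probe set of Cd9 gave 0.27.

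**Figure D3:**
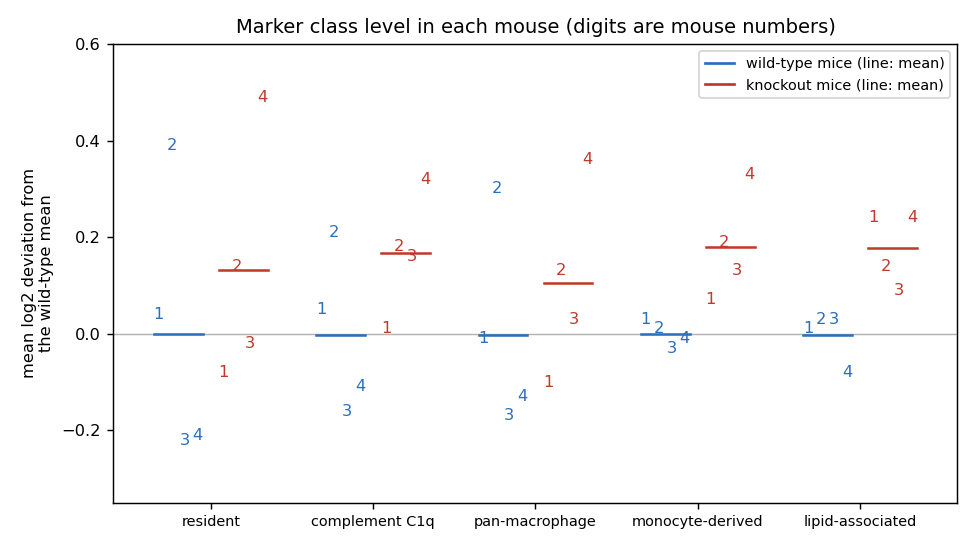
Each digit is a mouse, placed at the mean over a marker group of the genes' log2 deviation from their wild-type means (vertical axis), with wild-type mice left and knockout mice right in each group and a line at each mean. Wild-type mouse 2 is high in the resident (0.39), complement C1q (0.21) and pan-macrophage (0.30) groups but not in the monocyte-derived (0.01) or lipid-associated (0.03) group, while knockout mouse 4 is the highest or shares the highest place in all 5.

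Set side by side, the 5 marker groups had median differences of 0.12 for resident, 0.15 for complement C1q, 0.06 for pan-macrophage, 0.17 for monocyte-derived and 0.17 for lipid-associated genes, beside 0.03 over all genes. The resident and pan-macrophage medians depended on single livers. Omitting knockout mouse 4 brought the resident median to 0.05, and omitting wild-type mouse 2 brought it to 0.29. It was 0.18 when knockout mouse 1 was omitted, and 0.07 or 0.08 when wild-type mouse 3 or 4 was. The pan-macrophage median came to 0.01 when knockout mouse 4 was omitted and to 0.22 when wild-type mouse 2 was. Omission of knockout mouse 1 or 3 gave 0.14 or 0.12, and that of wild-type mouse 3 or 4 gave 0.02 or 0.03. Against the controls with Cre alone the pan-macrophage median was 0.22, and against those lacking it 0.02. With each liver omitted the median ran from 0.11 to 0.20 for complement C1q, from 0.13 to 0.20 for monocyte-derived and from 0.14 to 0.21 for lipid-associated genes, so the groups have no settled order. The level of each group in each liver follows. The mean level of the resident markers, relative to wild-type, was -0.08, 0.14, -0.02 and 0.49 in knockout mice 1 to 4 and 0.04, 0.39, -0.22 and -0.21 in wild-type mice 1 to 4, so the groups overlapped almost fully. Complement C1q genes stood at 0.01, 0.18, 0.16 and 0.32 in knockout and 0.05, 0.21, -0.16 and -0.11 in wild-type livers. Pan-macrophage genes stood at -0.10, 0.13, 0.03 and 0.36 against -0.01, 0.30, -0.17 and -0.13. Knockout and wild-type livers overlapped for these as well. The monocyte-derived markers stood at 0.07, 0.19, 0.13 and 0.33 in knockout and at 0.03, 0.01, -0.03 and -0.01 in wild-type livers, and the lipid-associated markers at 0.24, 0.14, 0.09 and 0.24 against 0.01, 0.03, 0.03 and -0.08. In these last groups every knockout liver was above every wild-type liver, by a small step that was not tested, because the genes were picked with earlier results known. Genes below the median signal showed a step of the same sign, at 0.03 to 0.07 in knockout and -0.02 to 0.02 in wild-type livers. With only genes above the median signal, the median difference was 0.25 for monocyte-derived and 0.16 for lipid-associated genes, against -0.02 over all genes. The value of 0.25 rests on Ly6c2 and Cx3cr1 alone. What part signal level plays in these steps was not tested. Lists outside the macrophage markers separated the groups in the same way, among them lymphocyte markers and MHC class II genes. The lymphocyte markers stood at 0.14 to 0.41 in knockout and -0.06 to 0.05 in wild-type livers. The MHC class II genes stood at 0.15 to 0.39 against -0.13 to 0.09. The further lipid-associated macrophage genes described below stood at 0.16 to 0.26 against -0.08 to 0.09. That mean includes Gpnmb, with a difference of 1.23, and Cd63, with 1.37. In that list 8 differences were above 0 and 7 below, with a median of 0.07. Skeletal muscle markers, 6 genes with 0 past the threshold, had a median difference of 0.19.

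Wild-type mouse 2 was the highest wild-type liver for 5 of 5 resident, 3 of 3 complement C1q and 13 of 14 pan-macrophage genes, but for 1 of 5 monocyte-derived and 1 of 4 lipid-associated genes. Over 12 measured lymphocyte markers the mean was 0.41 in knockout mouse 4, 0.14 to 0.18 in the other knockout livers and 0.03, -0.02, 0.05 and -0.06 in wild-type mice 1 to 4. All 12 differences were above 0, with a median of 0.20, which is above that of each macrophage marker group, and 0 of 12 passed in either direction. Neutrophil markers were at -0.03 in knockout mouse 4 and 0.09 in wild-type mouse 2, with 0 of 12 past the threshold. Sinusoidal endothelial markers were at 0.08 to 0.21 in knockout and -0.05 to 0.02 in wild-type livers, with 0 of 11 past the threshold and a median difference of 0.17. What part these cell types play in the macrophage marker values was not tested.

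The controls with and without Cre were also set against each other. No marker gene, and 0% of all genes, differed between them at an adjusted p of 0.05 (limma with 3 groups, 2 mice in each control class). Against the controls with Cre the median of the 31 was 0.17 and against those without Cre 0.08, with 0 of the 31 called in either contrast, where 0.131% and 0.212% of all genes were called. Both contrasts share the knockout livers.

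Genes around these markers were examined in lists of the same cells. A list of 16 phagocyte receptor and surface protein genes held signalling receptors beside receptors that engulf particles. All 16 had differences above 0, against 57.2% of all genes, and 1 was higher past the threshold, against 0.433% of all genes. Without knockout mouse 4 and wild-type mouse 2 the count past the threshold was 0, against 0.0812% of all genes higher. With these fewer arrays the genes called higher over the whole table fell from 96 to 18. Cd36, a scavenger receptor for oxidised lipoprotein and fatty acids that hepatocytes and endothelium express too, read 10.08, 9.97, 10.03 and 10.20 in knockout and 9.79, 9.60, 9.46 and 9.31 in wild-type livers. All knockout livers were above all wild-type livers. It rose by 0.53 ± 0.11, a fold of 1.44 (limma, adjusted p = 0.0425), but the call was lost in 11 of 20 alternative settings, among them the omission of any array except wild-type mouse 1. Siglec1, the sialoadhesin of resident macrophages, stood at 0.39 ± 0.12 (adjusted p = 0.147), Clec7a, a receptor for fungal glucans, at 0.37 ± 0.14, and the efferocytosis receptor Mertk at 0.17 ± 0.07, with its groups not overlapping. The Clec7a difference was 0.15 ± 0.13 against controls with Cre and 0.60 ± 0.13 against those without.

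A list of 16 further genes of lipid-associated and lysosome-rich macrophages, 15 of them measured, had 3 higher and 0 lower members, where 0.433% of all genes were higher and 0.717% lower. Without knockout mouse 4 and wild-type mouse 2, where 0.0812% of all genes were higher, the list had 2 higher members, Gpnmb and Cd63. These were the glycoprotein gene Gpnmb at 1.23 ± 0.12 and the tetraspanin gene Cd63 at 1.37 ± 0.14 (limma, adjusted p of 0.00226 and 0.00253), with the lysosomal protease gene Ctsl, which rose by 0.37 ± 0.07 (adjusted p = 0.036). Cd63 passed under all 20 alternative settings and Gpnmb under 18, its call being lost when only the controls with Cre were kept (adjusted p = 0.0521) and the gene not being tested among genes above the median level. In the limma fit with 3 groups the Gpnmb difference against the controls with Cre was 1.17 ± 0.16 (adjusted p = 0.0456), so this call depends on the fit. Ctsl read 12.75, 12.77, 12.74 and 12.91 in knockout and 12.41, 12.45, 12.43 and 12.37 in wild-type livers, without overlap, though its call was lost with any 1 array left out (adjusted p of 0.0645 to 0.11). The protease genes Ctsb and Ctss stood at 0.25 ± 0.07 and 0.42 ± 0.17 (adjusted p of 0.129 and 0.237). Fabp5, a fatty acid binding protein gene, and the lipid droplet gene Plin2 were on the other side, at -0.36 and -0.14, and the list median was 0.07. Gpnmb read 6.40, 6.64 and 6.76 in knockout mice 2 to 4, still more in knockout mouse 1, and 5.54, 5.57, 5.51 and 5.25 in wild-type livers, and Cd63 read 10.13, 9.68, 9.98 and 10.13 against 8.22, 8.83, 8.62 and 8.77. Neither gene's groups overlapped, and wild-type mouse 2 was the highest wild-type liver for both. Cathepsins, Cd63 and Cd36 are expressed by hepatocytes as well, so bulk RNA does not assign them to macrophages. Bulk RNA does not assign Gpnmb to a cell type either, and which cells held its transcript was not tested.

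**Figure D4:**
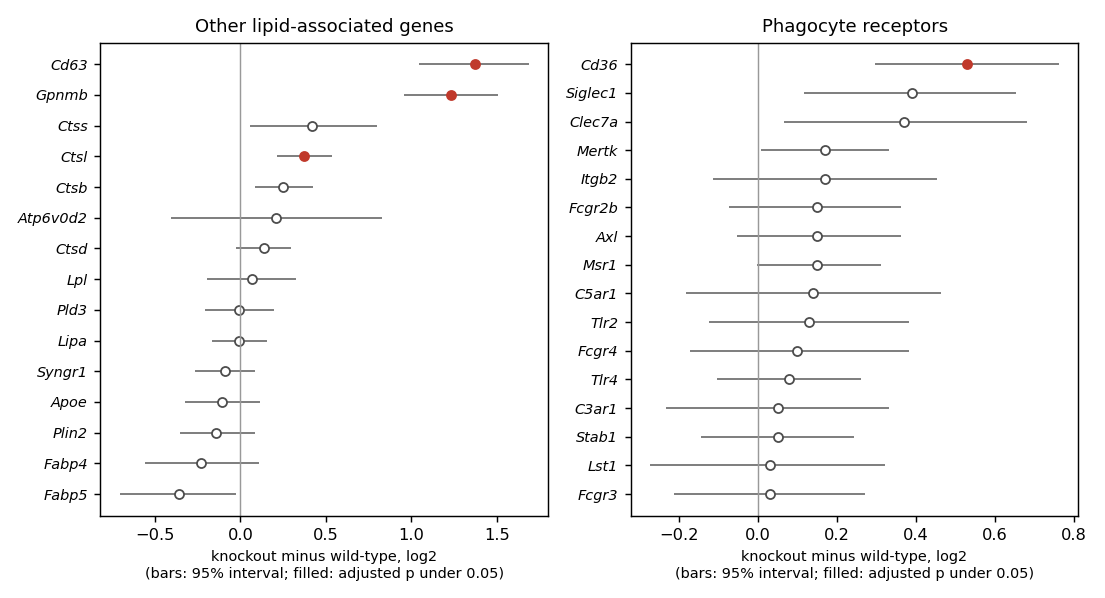
Knockout minus wild-type differences (log2, horizontal axes) with 95% intervals for 15 further genes of lipid-associated macrophages (left) and 16 phagocyte receptor and surface protein genes (right), with filled points for an adjusted p under 0.05. Cd63 (1.37), Gpnmb (1.23) and Ctsl (0.37) on the left and Cd36 (0.53) on the right are filled.

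The regulators of Kupffer cell identity gave no call. Of 14 listed 12 were measured, with a median difference of 0.05. Id3, a transcription factor that Kupffer cells need, stood at -0.34 ± 0.11 (limma, adjusted p = 0.151), and it read 7.71, 7.69, 7.49 and 7.56 in knockout and 7.98, 7.98, 8.18 and 7.68 in wild-type livers, where wild-type mouse 4 lay within the knockout range. Maf, a regulator of macrophage renewal, stood at 0.11 ± 0.07. Of 14 further Kupffer cell genes 12 were measured, 0 passed, and the folate receptor gene Folr2 and the iron transporter gene Slc11a1 stood at 0.20 ± 0.09 and 0.21 ± 0.11 (adjusted p of 0.31 and 0.373).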

How the data were processed

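Total RNA of 8 livers was hybridised to 1 Affymetrix whole-transcript array each. The deposited values are log2 expression values made by the authors. RMA and oligo version 1.24 are the tools that the submitters' processing notes name. That the scale is log2 was inferred from the method and from the range of 1.28 to 13.88. The chip definition and genome build are not given in the sources used here. RMA holds the arrays' distributions nearly equal (medians 5.79 to 5.89) and pulls large differences toward 0. No detection calls were used, so dim genes may be at background.

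Of 39137 probe sets 23521 had 1 symbol in the platform annotation, and each of 22180 genes was read from its brightest such probe set. Differences were fitted with limma version 3.58.1 (lmFit, then eBayes, two-sided tests) under R version 4.3.3 and adjusted by Benjamini-Hochberg over all genes, threshold 0.05. Errors are limma standard errors over 4 mice a group. The groups came from the titles. The labels number the mice within each group and name no litter or batch. The marker genes, lists and tests were chosen with earlier results of these data known. Named genes are all markers, Sco1, near-identical neighbours, and from each list the genes past the threshold and otherwise up to 2 of smallest adjusted p. Siglec1, Clec7a, Mertk, Ctsb, Ctss, Fabp5, Plin2, Ccl5, Ccl3, Csf1 and Il34 were named after their values were seen. With 4 simulated arrays a group, the fit found 57% of genes changed by 0.5 log2 units and 92.8% of those changed by 1. The false calls came to 4.3%. Smaller changes, such as the marker genes' median difference of 0.15, were not simulated, so how often the fit would find them is unknown. The number of arrays limits the precision. Alternatives were another variance prior, normalizations, filters on dim genes, rows per gene, array weights, the mouse number as a block, each control class alone and each array left out.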

Additional observations from a re-analysis of the deposited data

Results flagged for a closer look

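In all, 5 values stood out because 1 liver lay far from the other 3 of its group, by more than the 95% critical value of Dixon's ratio, among 62 groups of 4 values from the 31 marker genes. Chance flags about 1 in 20 such groups. All 5 were highs and all came from the mice that stood apart. Those mice were singled out by high values of these same genes, so the flags are no separate evidence about them. In knockout mouse 4 these were Timd4 at 9.40, where the other knockout livers lay at 8.91 to 8.96, and Lyz2 at 10.31, where they lay at 9.78 to 9.86. In wild-type mouse 2 these were Marco at 8.42, against 7.06 to 7.27 in the other wild-type livers, Adgre1 at 10.04, against 9.14 to 9.18, and Lyz2 at 10.39, against 9.86 to 9.94.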

How the results depend on the processing

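The count of marker genes past the threshold was 0 higher and 0 lower under all 20 alternatives. Mouse numbers are shared between the groups, and the labels do not say whether same-numbered mice share a litter or batch. Deviations of same-numbered livers correlated at 0.273, -0.022, 0.031 and -0.102, which does not settle this. With the number as a replicate block 0 marker genes were called, and 68 genes were higher and 142 lower over all genes. Marker genes without overlap, 2 as reported, numbered 1 among genes above the median level, 4 against controls without Cre, 7 against controls with Cre, 7 with knockout mouse 4 and wild-type mouse 2 left out (chosen after seeing the data), and 2 to 7 with each array left out; fewer arrays make overlap rarer, and all genes then show 13.7% to 23.1%. Genes called higher and lower over the whole table, 96 and 159, were 159 and 300 with a trended robust variance, 155 and 301 above the 25th percentile of level, 319 lower above the median level, 271 lower with centred arrays, 245 lower with array weights, 7 and 9 against controls without Cre, 4 and 2 against controls with Cre, 18 and 33 without both outlying mice, and 29 to 65 and 60 to 119 with each array left out. Sco1 (-0.41) passed with the trended variance and with either filter. Median differences of the marker groups moved by less than the larger of the 2 groups' SDs between livers under all 20 alternatives, though by over 1.5 times for resident and pan-macrophage genes. Of 614 marker gene values under alternatives 31 turned sign, in 9 genes: against controls without Cre Marco was -0.28, Adgre1 -0.15 and Cd14 -0.14; against controls with Cre Lyz2 was 0.05, Aif1 0.05 and Ms4a7 0.06; Marco was -0.0028 with centred arrays and -0.09 with array weights; after renewed quantile normalization Cd14 was -0.0016 and Itgam -0.02; and Aif1 was 0.04 without both outlying mice. With each array left out the ranges were -0.25 to 0.34 for Marco, -0.01 to 0.20 for C1qa, -0.08 to 0.29 for Adgre1, -0.20 to 0.04 for Lyz2, -0.13 to 0.15 for Aif1, -0.08 to 0.22 for Cd14 and -0.08 to 0.14 for Tyrobp. The cause of these changes was not tested.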

Other observations

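Genes that recruit and feed macrophages gave no call among 17 measured, 15 of them with a difference above 0 (57.2% over all genes) and a median of 0.16. On the higher side Ccl5, a chemokine of T cells, stood at 0.46 ± 0.23, the interferon-induced chemokine gene Cxcl10 at 0.33 ± 0.14 and Ccl3, a chemokine of activated macrophages, at 0.27 ± 0.11 (limma, adjusted p of 0.352, 0.25 and 0.254). The lower side was led by Ccl9, a chemokine of myeloid cells in mice, which read 11.26, 11.28, 11.33 and 11.08 in knockout and 11.47, 11.68, 11.55 and 11.51 in wild-type livers, without overlap (-0.31 ± 0.08; limma, adjusted p = 0.102). The growth factor genes Csf1 and Il34, ligands of CSF1R, stood at 0.01 and 0.02. Of 13 cytokine and activation genes 0 passed, with a median of -0.05, and the inflammasome cytokine gene Il18 stood at -0.26 ± 0.10 (adjusted p = 0.226).

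All 6 measured genes of antigen presentation on MHC class II were above 0, with a median of 0.22 and 0 past the threshold. H2-Eb1 read 7.98, 8.14, 8.00 and 8.08 in knockout and 7.88, 7.79, 7.74 and 7.78 in wild-type livers, without overlap (0.25 ± 0.07; limma, adjusted p = 0.124), and H2-Ab1 stood at 0.46 ± 0.15 (adjusted p = 0.166). Knockout mouse 4 was the highest knockout liver for 1 of these 6 genes, where the share over all genes was 26.9%. It was the highest for 8 of 12 lymphocyte markers, 8 of 13 cytokine and activation genes and 7 of 12 further Kupffer cell genes, beside 21 of the 31 macrophage markers. The counts were 6 of 17 for genes that recruit and feed macrophages, 3 of 9 for hepatocyte, 2 of 11 for sinusoidal endothelial and 1 of 12 for neutrophil markers.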
